A study of Mus musculus with 9 samples.

Results

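The genes described here encode the nuclear subunits of the oxidative phosphorylation machinery, followed in whole tumours grown from MC38, a mouse line of colorectal carcinoma, in C57BL/6J mice. Members were taken by gene name from the deposited tables: names beginning with Nduf and a letter a, b, c, s or v plus a digit (complex I), the Sdh genes a to d (complex II), Uqcr (complex III), Cox with a digit from 4 to 8 and a letter a to c (complex IV) and Atp5 (complex V). Names with a copy suffix and names marked -ps were left out. The rule gave 85 genes of 42454 names, 40 in complex I, 4 in complex II, 8 in complex III, 16 in complex IV and 17 in complex V, and 82 of the 85 had enough counts to be tested among 18243 names. The 2 groups were 4 tumours of vector-carrying cells, whose genotype the labels give as WT (Vec), and 5 tumours of cells with a knockout of CD43 (CD43-KO), all harvested at day 21 after inoculation. The host strain was the same in both groups, and the clonality of the cell lines and the age and sex of the mice were not given in the sources used here. Tumours are named below by group and replicate number, which follows the order of deposition and links no tumours across groups. The labels do not say how far replicates were separate experiments, so p-values measure the spread between these tumours.

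Oxidative phosphorylation takes place in the inner mitochondrial membrane. Complex I takes electrons from NADH and complex II from succinate, complex III passes them from ubiquinol to cytochrome c, complex IV hands them to oxygen, and complex V, the ATP synthase, uses the proton gradient that the chain builds up. Most subunits are encoded in the nucleus and a few in mitochondrial DNA, and the latter are not analysed here. Several complex IV subunits exist as a common form and a form of heart, skeletal muscle, brown fat or testis. Colon carcinoma cells, leukocytes and stroma all use the common subunits, so a level in a bulk tumour adds up all cell types, and fewer cells of a type cannot be told apart from less RNA per cell.

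Total counts ranged from 60751738 to 72114385 in Vec and from 44814061 to 62194418 in CD43-KO tumours, the lowest being CD43-KO replicate 3. Levels are CPM, the counts relative to library size after scaling of the libraries by TMM factors. Spn, which encodes CD43 (chromosome 7, 127123637 to 127145552, GRCm38), was at 41.0, 43.7, 44.6 and 53.8 CPM in Vec replicates 1 to 4 and at 25.6, 33.6, 31.2, 23.0 and 6.81 CPM in CD43-KO replicates 1 to 5, so every CD43-KO tumour lay below every Vec tumour, yet its edgeR adjusted p was 0.280. Host leukocytes, which normally make CD43, are part of such tumours. The summed level of 12 skeletal muscle markers reached 1541 CPM in CD43-KO replicate 3, where the other 8 tumours held 89.1 to 159 CPM, and that of 7 white fat markers 495 CPM, where the others held 12.4 to 48.2 CPM. The epithelial markers Epcam, Krt8, Krt18, Krt19 and Krt20 were each under 2 CPM in every tumour, and Cdh1 lay between 6.42 and 14.8 CPM. 2 libraries stood apart for the subunit genes: CD43-KO replicate 3 was the highest CD43-KO tumour for 71 of the 82 tested members (33.4% of all tested genes) and Vec replicate 4 the highest Vec tumour for 58 (31.1% of all tested genes). Results are therefore also given without these libraries.

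Summed over each complex, subunit transcripts did not differ between the groups beyond the spread of tumours. Complex I summed to 2786, 2783, 3137 and 3708 CPM in Vec replicates 1 to 4 and to 2565, 2703, 3945, 2588 and 2763 CPM in CD43-KO replicates 1 to 5. The group means were 3104 ± 436 (SD, n = 4) and 2913 ± 583 (SD, n = 5) CPM, a log2 ratio of -0.09. Complex II summed to 563, 590.5, 570.3 and 730.4 CPM in Vec and 494, 543, 679, 527 and 518 CPM in CD43-KO tumours, with means of 614 ± 78.7 and 552 ± 73.1 CPM and a log2 ratio of -0.15. In both complexes Vec replicate 4 and CD43-KO replicate 3 were the highest of their group.

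Complex III stood at 929.7, 956, 1064 and 1251 CPM in Vec and 930.5, 897, 1487, 944 and 933 CPM in CD43-KO tumours. Complex IV stood at 1598, 1468, 1934 and 2033 CPM in Vec and 1512, 1527, 2823, 1558 and 1615 CPM in CD43-KO tumours. Complex V, with the most counts, stood at 3855, 3727, 4190.02 and 5114 CPM in Vec and 3476, 3763, 5203, 3691 and 3678 CPM in CD43-KO tumours. Means in Vec and CD43-KO were 1050.2 ± 146 and 1038 ± 251 CPM for complex III, 1758 ± 268 and 1807 ± 569.5 CPM for complex IV, and 4221 ± 626 and 3962 ± 702 CPM for complex V. The log2 ratios were -0.016, 0.04 and -0.09, smaller than the within-group spread. CD43-KO replicate 3 lay 1.82 times above the mean of the other CD43-KO tumours in complex IV, 1.6 times in complex III, 1.49 times in complex I and 1.42 times in complex V, and least in complex II.

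**Figure D1:**
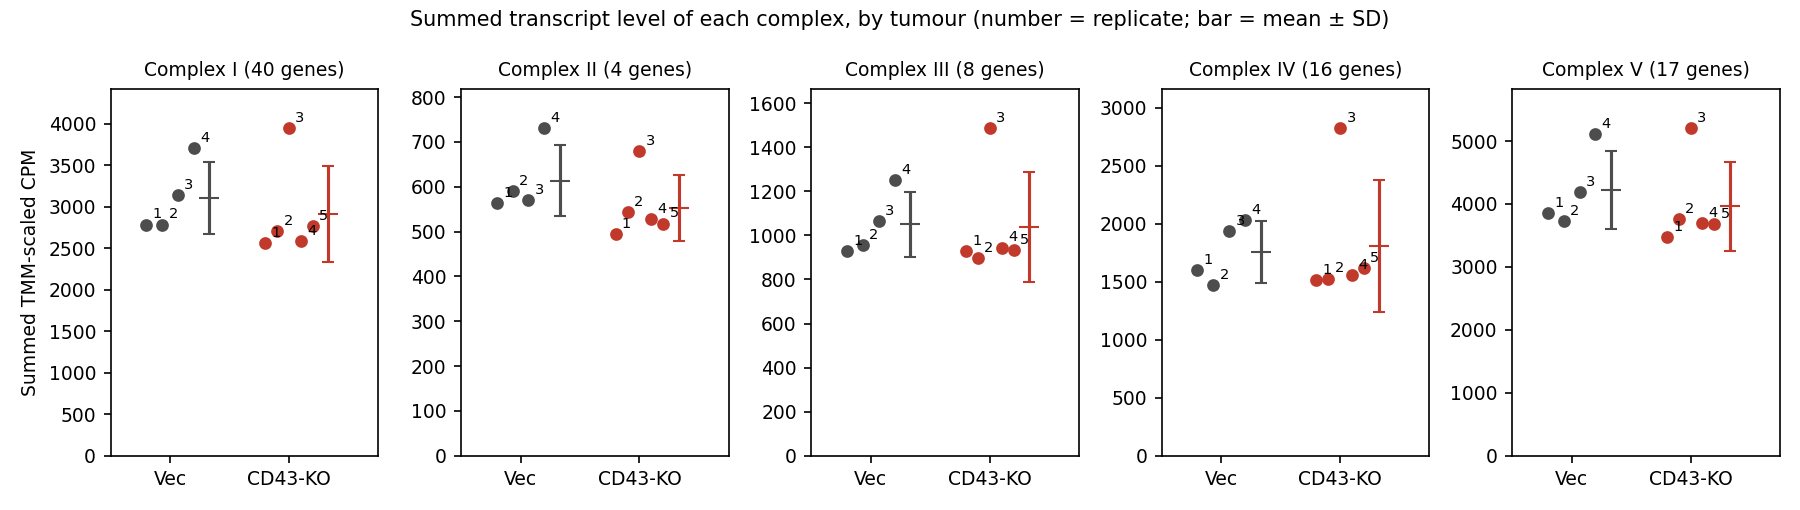
Summed TMM-scaled CPM of the subunit genes of each complex (y axis, from 0) in 4 Vec and 5 CD43-KO tumours. Points are tumours numbered by replicate and bars are mean ± SD; CD43-KO replicate 3 is the highest CD43-KO tumour in all 5 panels, and the other 4 CD43-KO tumours lie close together, for complex I between 2565 and 2763 CPM.

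Without CD43-KO replicate 3 the other 4 CD43-KO tumours lay in a narrow band at or below the lower Vec tumours. The sum of all 85 members was 9732, 9525, 10895 and 12837 CPM in Vec and 8977, 9434, 14137, 9309 and 9507 CPM in CD43-KO tumours. Without replicate 3 the CD43-KO mean was 9307 ± 234 CPM (SD, n = 4), against 10747 ± 1518 CPM in Vec. With Vec replicate 4 also left out, the Vec mean was 10050.5 ± 739 CPM (SD). The highest of these 4 tumours was 9507 CPM and the lowest Vec tumour 9525 CPM. For complex I these values were 2763 and 2783 CPM, and for complex II 543 and 563 CPM, whereas complexes III, IV and V overlapped. This separation was narrow and depended on the scaling: with DESeq2 size factors only complex II still separated, and with total counts alone no complex did. Refitted without CD43-KO replicate 3, the log2 ratios of complexes I to V were -0.23, -0.24, -0.19, -0.19 and -0.22. Without Vec replicate 4 they were -0.0030, -0.07, 0.07, 0.11 and 0.0058, and without both tumours -0.13, -0.15, -0.09, -0.11 and -0.11.

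Gene by gene, no subunit passed the edgeR quasi-likelihood test at an adjusted p of 0.05, in either direction, and 0% of all tested genes did. At an unadjusted p under 0.05, 7 members were lower, 8.54% of the 82 against 7.63% of all tested genes, and 1 was higher, 1.22% against 7.75%. DESeq2 called 2 members lower, Cox7a2l and Ndufv1, where it called 2.02% of all tested genes lower, and 0 higher, against 1.36%. limma voom with sample quality weights called the same 2 genes lower, against 1.82% of all tested genes, and 0 higher, against 0.904%. These shares lie near those of all genes, apart from the few higher ones. The smallest edgeR adjusted p among members was 0.190.

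The median log2 fold change of the 82 members was -0.07, beside 0.027 over all tested genes, and 49 of 82 lay below 0, where 46% of all tested genes did. With total counts in place of TMM factors the members' median was 0.017, beside 0.11 over all genes, and 36 of 82 lay below 0. The direction also rested on single tumours. Without Vec replicate 4 the median was 0.04 with 35 of 82 below 0, and without CD43-KO replicate 3 it was -0.21 with 72 of 82 below 0. Without both it was -0.11 with 65 of 82 below 0, while the median of all genes stayed between 0.0090 and 0.014 in these 3 fits. DESeq2 without CD43-KO replicate 3 called 8 of 82 members lower, Atp5c1, Atp5e, Cox7a2l, Ndufb10, Ndufb8, Ndufv1, Sdhc and Uqcrh, among 675 genes lower in all. It also called 8 without both tumours, with Sdhd in place of Uqcrh, among 523 genes lower in all. It called 0 members when Vec replicate 1, Vec replicate 4 or CD43-KO replicate 1, 2 or 5 was left out, where it called 118, 161, 127, 125 and 226 genes lower. Without Vec replicate 2 it called 1 member lower, Cox7a2l, among 169 genes. Without Vec replicate 3 or CD43-KO replicate 4 it called 2, Cox7a2l and Ndufv1, among 616 and 493 genes lower. Shares of all tested genes were not computed for these fits.

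**Figure D2:**
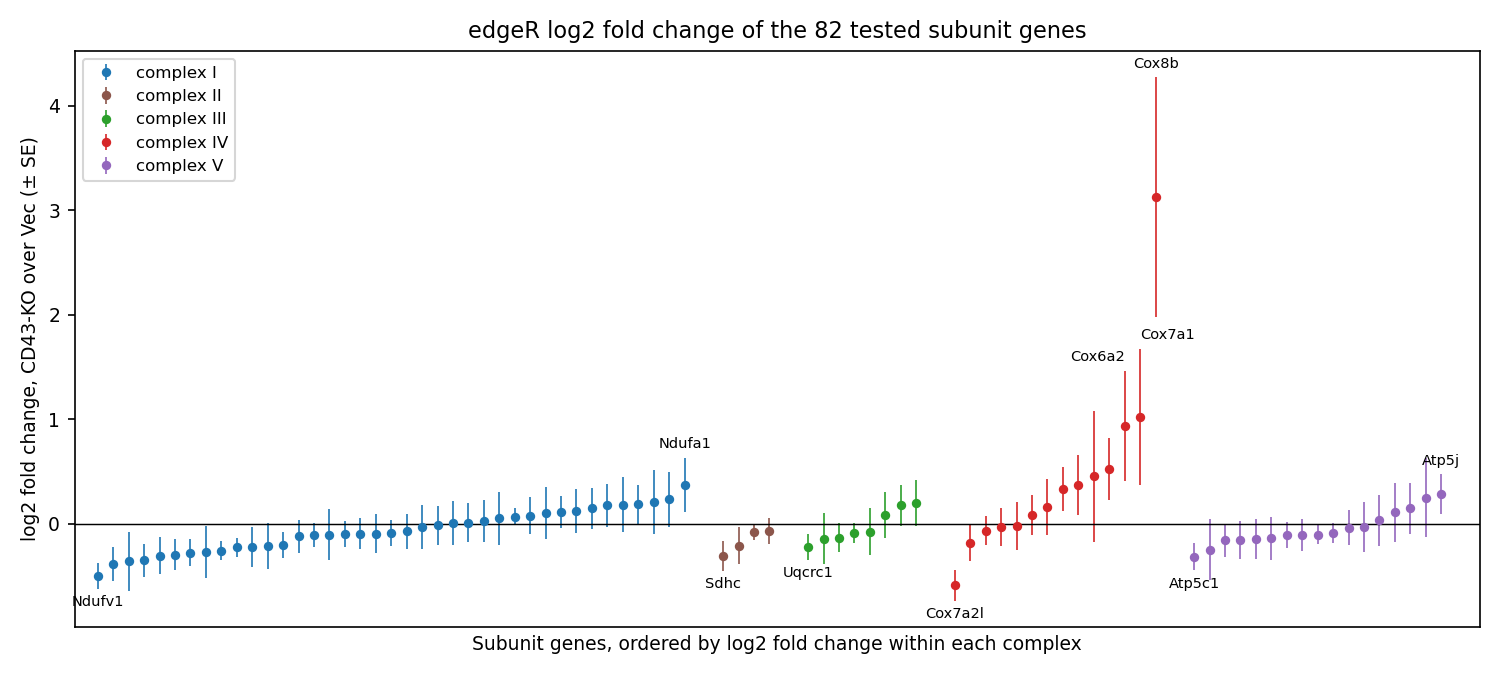
edgeR log2 fold change, CD43-KO over Vec (y axis), of the 82 tested subunit genes, ordered within complexes I to V, with bars of 1 SE and some genes named. Most genes lie within 0.5 of 0; the genes farthest from 0 are all of complex IV, Cox7a2l at -0.59 and Cox6a2, Cox7a1 and Cox8b at 0.94, 1.02 and 3.12.

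In 3 members all 5 CD43-KO tumours lay below all 4 Vec tumours, 3.66% of those tested beside 3.5% of all tested genes, and in 0 members above, beside 2.08%. Among them was Ndufv1, the flavin-binding subunit of complex I that oxidises NADH (chromosome 19, 4007499 to 4012755). It was at 137, 146, 113 and 177 CPM in Vec replicates 1 to 4 and at 95.5, 108, 94.3, 111 and 99.0 CPM in CD43-KO replicates 1 to 5. The lowest Vec value, in replicate 3, was near the highest CD43-KO value, in replicate 4. The log2 fold change was -0.50 ± 0.12 (SE), the edgeR adjusted p 0.190 and the DESeq2 adjusted p 0.0190.

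Another was Cox7a2l (chromosome 17, 83501917 to 83514333), known for a part in supercomplexes of complexes III and IV that was not measured here. Its levels were 286, 251, 254 and 367 CPM in Vec and 161, 183, 243, 194 and 181 CPM in CD43-KO tumours, with means of 289 ± 53.9 (SD, n = 4) and 192 ± 30.7 (SD, n = 5). CD43-KO replicate 3 was again the highest of its group, close below the lowest Vec tumour. The log2 fold change was -0.59 ± 0.15 (SE), the edgeR adjusted p 0.191 and the DESeq2 adjusted p 0.0170. The exact two-sided permutation p over the 126 splits of 9 tumours was 0.00794 for Ndufv1, the smallest that this design can give, and 0.0159 for Cox7a2l, both unadjusted and out of 85 computed.

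**Figure D3:**
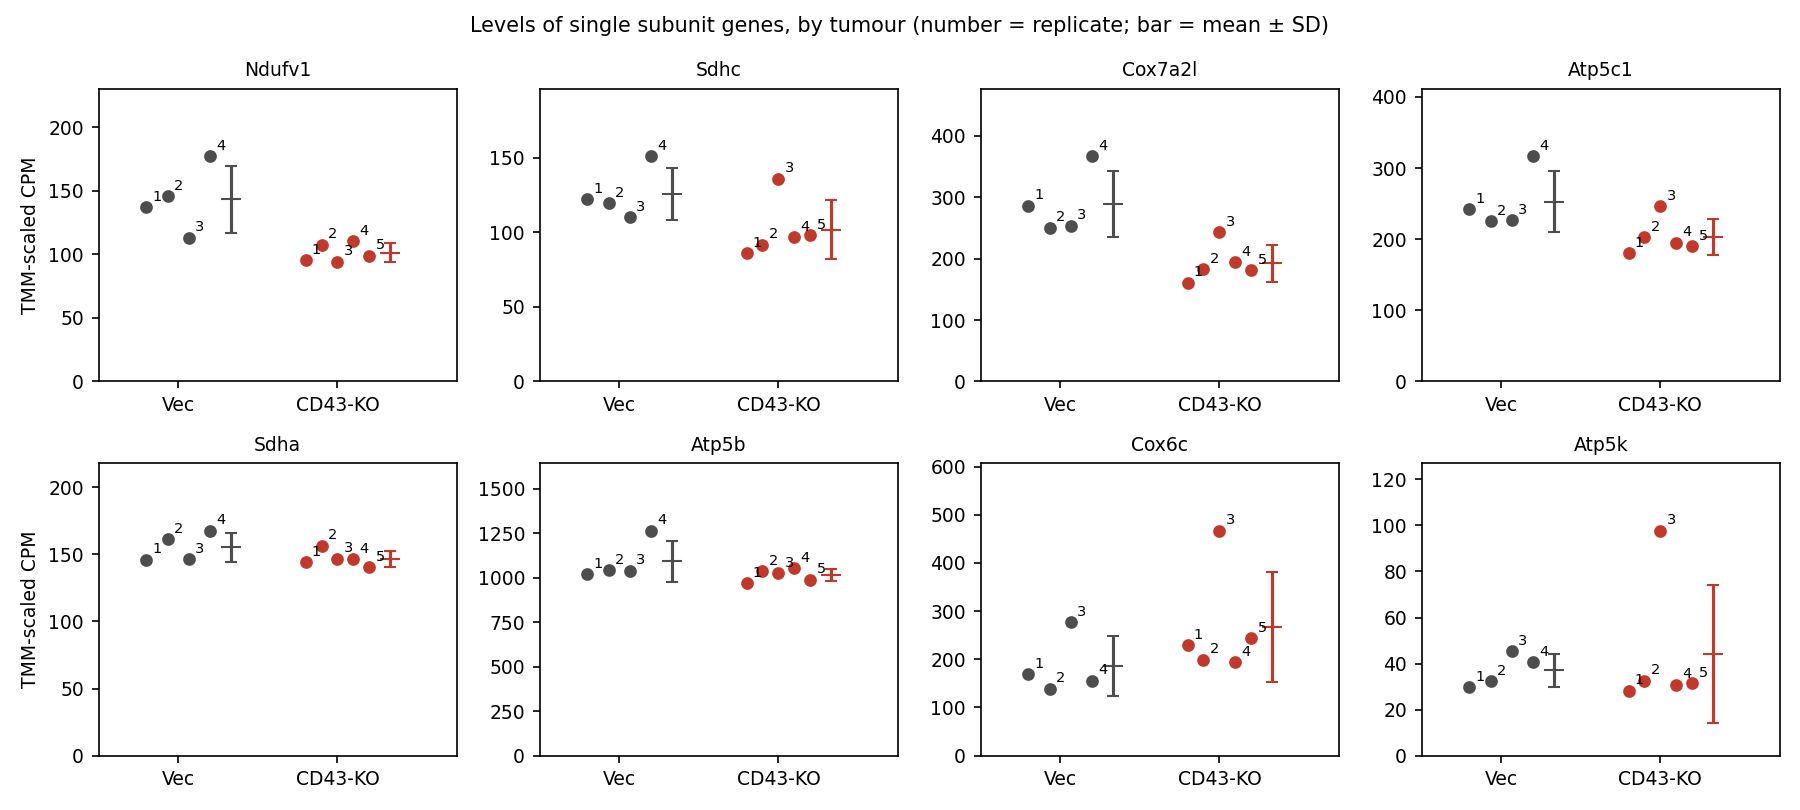
TMM-scaled CPM (y axis, from 0) of 8 subunit genes in each tumour, with replicate numbers and mean ± SD. Ndufv1 and Cox7a2l do not overlap between the groups, Sdhc and Atp5c1 overlap only through CD43-KO replicate 3, Sdha varies little over the 9 tumours, Atp5b is nearly level apart from Vec replicate 4, and Cox6c and Atp5k have 1 high tumour, CD43-KO replicate 3, at 467 and 97.7 CPM.

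With CD43-KO replicate 3 left out, the remaining 4 CD43-KO tumours lay below all Vec tumours in 17 of 82 members, 20.7% beside 7.26% of all tested genes, and above them in 0, beside 5.8%. This count leaves out the tumour with the highest values and was chosen with that known. They were 10 genes of complex I, among them Ndufv1, Ndufb8, Ndufs7 and Ndufs8, Sdhc and Sdhd of complex II, Cox7a2l of complex IV, and Atp5c1, Atp5e, Atp5h and Atp5pb of complex V. Complex III had none.

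Promoters of subunit genes are known for sites of the factors NRF1, GABPA and YY1, and the windows of the 2 genes that DESeq2 called lower are shown beside those of other members described here. Each runs from 250 bases before to 50 bases after the start site of transcription, 5′ to 3′ on the gene's strand, as RefSeq gives it for GRCm38.p6. Capitals mark matches to the letters searched on both strands, GCGCA and GCGC with any 1 base between them for NRF1, CCGGAAG for GABPA and AANATGGC for YY1, where N is any base. Cox6a1 and Atp5b are common subunits, and Cox8a and Cox8b are the common and the muscle form of the same subunit.
Ndufv1 (chr19:4012706-4013005, minus strand): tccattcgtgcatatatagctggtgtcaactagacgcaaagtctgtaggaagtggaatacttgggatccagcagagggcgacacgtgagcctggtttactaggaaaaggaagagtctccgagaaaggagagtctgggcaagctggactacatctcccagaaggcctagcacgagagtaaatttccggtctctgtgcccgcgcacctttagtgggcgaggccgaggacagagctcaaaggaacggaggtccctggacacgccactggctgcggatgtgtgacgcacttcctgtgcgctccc
Cox7a2l (chr17:83514284-83514583, minus strand): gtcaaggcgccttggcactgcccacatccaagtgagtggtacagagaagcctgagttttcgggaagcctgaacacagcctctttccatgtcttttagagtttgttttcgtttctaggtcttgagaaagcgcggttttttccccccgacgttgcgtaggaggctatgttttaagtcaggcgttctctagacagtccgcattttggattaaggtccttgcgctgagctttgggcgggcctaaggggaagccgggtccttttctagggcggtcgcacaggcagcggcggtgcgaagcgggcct
Cox6a1 (chr5:115348909-115349208, minus strand): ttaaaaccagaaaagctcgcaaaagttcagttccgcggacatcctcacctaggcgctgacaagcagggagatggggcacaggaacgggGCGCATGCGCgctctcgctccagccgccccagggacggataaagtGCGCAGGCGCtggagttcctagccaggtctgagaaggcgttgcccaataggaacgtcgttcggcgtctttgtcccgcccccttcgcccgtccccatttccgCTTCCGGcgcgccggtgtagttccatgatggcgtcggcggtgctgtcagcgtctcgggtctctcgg
Atp5b (chr10:128083057-128083356, plus strand): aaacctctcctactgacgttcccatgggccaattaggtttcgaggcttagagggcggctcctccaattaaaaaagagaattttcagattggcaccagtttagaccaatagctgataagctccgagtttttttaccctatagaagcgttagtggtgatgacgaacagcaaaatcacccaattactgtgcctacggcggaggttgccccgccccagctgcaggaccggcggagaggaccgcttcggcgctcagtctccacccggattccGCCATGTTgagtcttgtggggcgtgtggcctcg
Cox8a (chr19:7217567-7217866, minus strand): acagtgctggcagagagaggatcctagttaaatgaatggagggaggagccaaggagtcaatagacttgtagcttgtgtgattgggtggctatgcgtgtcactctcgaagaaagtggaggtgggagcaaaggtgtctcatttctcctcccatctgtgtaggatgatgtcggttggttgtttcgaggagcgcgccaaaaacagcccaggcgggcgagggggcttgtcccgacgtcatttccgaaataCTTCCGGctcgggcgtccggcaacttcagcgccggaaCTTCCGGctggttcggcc
Cox8b (chr7:140900397-140900696, minus strand): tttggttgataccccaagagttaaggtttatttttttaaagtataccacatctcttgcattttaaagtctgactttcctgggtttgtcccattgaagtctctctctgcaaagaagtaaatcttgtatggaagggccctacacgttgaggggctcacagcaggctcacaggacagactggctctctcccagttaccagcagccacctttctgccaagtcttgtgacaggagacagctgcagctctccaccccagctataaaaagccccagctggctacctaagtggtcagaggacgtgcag

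None of the 3 motifs matched in the windows of Ndufv1, Cox7a2l and Cox8b. The window of Cox6a1 held 3 matches, that of Cox8a 2 and that of Atp5b 1. Other members with a log2 fold change below 0 differed in this. The windows of Ndufs7, Ndufs8, Ndufb8 and Sdhd held matches, and those of Ndufa10 and Ndufv3 did not. Whether matches go with the fold change was not tested. RefSeq windows were found for 69 of the 85 members, 74 windows in all. NRF1 letters stood in 18 of them (24.3%, against 4.60% of all 32851 windows), GABPA letters in 17 (22.97%, against 8.86%) and YY1 letters in 17 (22.97%, against 6.05%). At least 1 of the motifs stood in 45 of 74 windows, 60.8% beside 17.4% of all. GABPA and YY1 matches can share bases, and the windows of members were richer in G and C, with a median of 57.3% against 52.7%. A match describes letters in a window, not a bound site.

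In complex I the 5 subunits that carry the flavin or iron-sulfur centres and pass on electrons, Ndufv1, Ndufv2, Ndufs1, Ndufs7 and Ndufs8, had lower log2 fold changes than the other members, a split chosen after the values were seen and not tested. Their median was -0.23 with 4 of 5 below 0, and that of the other 34 tested members -0.05 with 19 below 0. With total counts the medians were -0.14 and 0.03, with 4 of 5 and 16 of 34 below 0. Without CD43-KO replicate 3 the medians lay close, at -0.27 and -0.22, and with Vec replicate 4 left out they were -0.16 and 0.04. The 5 genes summed to 494, 524, 520.5 and 639 CPM in Vec and 443, 462, 512, 454 and 455 CPM in CD43-KO tumours. CD43-KO replicate 3 was inside the Vec range and the other 4 CD43-KO tumours under it. Ndufv1 and Ndufs8, at -0.50 and -0.35, lie on chromosome 19, and Ndufs7, Ndufv2 and Ndufs1 were at -0.23, -0.09 and 0.07. The 5 genes had a median transcript length of 1312 nucleotides, against 718 for the others. In CD43-KO replicate 3 they exceeded the other CD43-KO tumours by a median log2 difference of 0.16, against 0.70 for the others. The part of chromosome and length in this split was not tested.

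Ndufs7, an iron-sulfur subunit next to the ubiquinone site, was at 102, 108, 109 and 125 CPM in Vec and 88.6, 101, 104, 94.9 and 86.5 CPM in CD43-KO tumours (a log2 fold change of -0.23 ± 0.09, SE, adjusted p = 0.291 by edgeR). CD43-KO replicate 3 alone reached into the Vec range. The exception among the 5 was Ndufs1, the largest iron-sulfur subunit, at 58.0, 61.9, 71.6 and 67.6 CPM in Vec and 67.0, 67.3, 66.6, 69.1 and 70.0 CPM in CD43-KO tumours. Its CD43-KO values lay within the Vec range.

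The accessory subunits with the smallest p on the higher side were Ndufa1, Ndufa5 and Ndufc2. Ndufa1, an accessory subunit needed for assembly of the membrane arm, was at 30.7, 35.5, 49.2 and 41.8 CPM in Vec and 43.0, 43.4, 89.2, 37.5 and 42.2 CPM in CD43-KO tumours (a log2 fold change of 0.37 ± 0.26, SE, adjusted p = 0.495 by edgeR). CD43-KO replicate 3 was the highest of all 9, and the rest overlapped. Ndufa5 and Ndufc2 had log2 fold changes of 0.24 and 0.19 with adjusted p by edgeR of 0.681 and 0.642. With CD43-KO replicate 3 left out, the log2 fold changes of Ndufa1, Ndufa5 and Ndufc2 were 0.07, -0.06 and 0.04. Of the near-copies, Ndufb4b and Ndufb4c stayed below 1.3 CPM in every tumour, and Ndufa11b had 2 counts in Vec replicate 3 and 0 in the other 8 libraries.

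All 4 genes of complex II, succinate dehydrogenase, which also works in the tricarboxylic acid cycle, had a log2 fold change below 0 with TMM scaling, 2 of 4 did with total counts, and none passed. Sdhc, a membrane anchor, was at 123, 119.7, 110.1 and 151 CPM in Vec and 85.9, 91.9, 136, 96.9 and 98.0 CPM in CD43-KO tumours. Sdhd, the other anchor, was at 144, 140.2, 143 and 198 CPM in Vec and 116, 124, 195, 123 and 119.6 CPM in CD43-KO tumours. In both anchors CD43-KO replicate 3 was inside the Vec range and the other 4 CD43-KO tumours under it. The log2 fold changes were -0.31 ± 0.14 and -0.21 ± 0.17 (SE), with adjusted p by edgeR of 0.340 and 0.577.

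Sdha, the flavoprotein that oxidises succinate, was among the steadiest members, at 146, 161, 146 and 167 CPM in Vec and 144, 156, 147, 147 and 140.1 CPM in CD43-KO tumours. Its highest level was 1.20 times its lowest over the 9 tumours. Sdhb, the iron-sulfur subunit, was at 151, 169, 171 and 214 CPM in Vec and 148, 171, 201, 161 and 159.9 CPM in CD43-KO tumours. The log2 fold changes of Sdha and Sdhb were -0.08 ± 0.08 and -0.07 ± 0.12 (SE; edgeR adjusted p = 0.628 and 0.811), and with total-count scaling both were above 0, at 0.0073 and 0.022. With Vec replicate 4 left out, Sdhb was at 0.03. Per kilobase of transcript, Vec levels were 53.5 CPM for Sdha, 154 for Sdhb, 63.1 for Sdhc and 127 for Sdhd.

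In complex III, 5 of 8 genes had a log2 fold change below 0 with TMM scaling and 3 of 8 with total counts, and none passed. With Vec replicate 4 left out, 4 of 8 lay below 0, and with CD43-KO replicate 3 left out, 8 of 8. The core proteins Uqcrc1 and Uqcrc2 and the Rieske iron-sulfur protein Uqcrfs1 had log2 fold changes of -0.22, -0.09 and -0.13, with adjusted p by edgeR of 0.408, 0.679 and 0.658. Uqcrc1 was at 119.9, 117, 109.7 and 166 CPM in Vec and 99.9, 109, 112, 121 and 107 CPM in CD43-KO tumours. Vec replicate 4 stood above the other 8 tumours. With total counts Uqcrc2 was at 0.00078. Uqcrc1 is uncertain, since a row with a copy suffix held nearly the same counts.

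The small subunits Uqcrb, Uqcrq and Uqcr11 had log2 fold changes of 0.20 ± 0.22, 0.18 ± 0.20 and 0.09 ± 0.22 (SE), with adjusted p by edgeR of 0.677, 0.681 and 0.869. Uqcrq, which sits beside cytochrome b, was at 191, 232, 265 and 258 CPM in Vec and 278, 213, 405, 236 and 207 CPM in CD43-KO tumours. Replicate 3 was the highest of all 9 and the other CD43-KO tumours lay within or just above the Vec range. Without it the 3 log2 fold changes were -0.03, -0.027 and -0.17.

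Complex IV held both the lowest and the highest fold changes of the members, and 9 of its 14 tested genes lay above 0, with a median log2 fold change of 0.25. With total counts 12 lay above 0, and without CD43-KO replicate 3 only 6 did, with a median of -0.09. The common subunits with the highest fold changes were Cox6c and Cox7a2, both small membrane subunits. Cox6c was at 169, 139, 277 and 156 CPM in Vec and 229, 199, 467, 193 and 244 CPM in CD43-KO tumours (a log2 fold change of 0.52 ± 0.30, SE, adjusted p = 0.411 by edgeR). Cox7a2 was at 93.1, 75.1, 138 and 114 CPM in Vec and 113, 107, 247, 103 and 111 CPM in CD43-KO tumours (a log2 fold change of 0.37 ± 0.29, SE, adjusted p = 0.541 by edgeR). Vec replicate 3 was the highest Vec tumour in both, and CD43-KO replicate 3 the highest of all. With CD43-KO replicate 3 left out, these log2 fold changes were 0.22 and 0.04, and that of Cox7b, another small subunit, was 0.11 in place of 0.33.

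Cox8a and Cox6a1, the common forms of further small subunits, had log2 fold changes of -0.18 ± 0.17 and -0.06 ± 0.14 (SE), and Cox6b1, which faces the intermembrane space, -0.02 ± 0.23 (SE). The edgeR adjusted p were 0.620, 0.842 and 0.974. Cox6a1 and Cox6b1 were above 0 with total-count scaling, at 0.024 and 0.06, and with Vec replicate 4 left out, at 0.04 and 0.08.

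The muscle forms were highest in CD43-KO replicate 3, the tumour with the high muscle and fat markers. Cox8b was at 0.553, 0.819, 0.479 and 0.370 CPM in Vec and 0.703, 1.67, 20.5, 0.834 and 0.811 CPM in CD43-KO tumours. Cox7a1 was at 2.30, 2.38, 3.18 and 1.68 CPM in Vec and 1.70, 2.51, 15.3, 2.49 and 2.40 CPM in CD43-KO tumours. Cox6a2 was at 2.37, 4.39, 3.46 and 4.12 CPM in Vec and 7.27, 4.70, 17.0, 2.64 and 2.91 CPM in CD43-KO tumours, where replicate 1 was also above the Vec range. The log2 fold changes of 3.12 ± 1.15, 1.02 ± 0.65 and 0.94 ± 0.53 (SE) became 0.84, -0.08 and 0.28 without replicate 3, and the adjusted p by edgeR were 0.272, 0.458 and 0.408. Ucp1, the defining marker of brown fat, had 0 counts in every tumour, while the muscle markers Acta1 and Ckm were at 347 and 179.6 CPM in replicate 3 and at most 42.5 and 19.9 CPM elsewhere. The part of muscle and fat tissue in the levels of the common subunits in that tumour was not tested.

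Per kilobase of transcript, the muscle form made up 9.92% of the Cox8b and Cox8a pair in CD43-KO replicate 3 and at most 1.35% in any other tumour. For Cox7a1 with Cox7a2 the share was 8.53% there and at most 4.55% elsewhere, and for Cox6a2 with Cox6a1 4.57% and at most 2.87%. The common forms thus held over 90% of each pair in every tumour. Of the testis forms, Cox7b2 and Cox8c had 0 counts in all 9 libraries, and Cox6b2 lay between 0.0447 and 0.493 CPM. Ndufa4l2, a relative of Ndufa4 that is known to be induced by hypoxia, was at 8.40, 4.51, 6.25 and 9.31 CPM in Vec and 8.28, 5.75, 5.97, 3.35 and 4.45 CPM in CD43-KO tumours. The groups overlapped widely (a log2 fold change of -0.36 ± 0.28, SE, adjusted p = 0.555 by edgeR). Ndufa4 itself, counted in complex I by its name and known as a subunit of complex IV, was at 73.5 ± 12.1 (SD, n = 4) and 81.4 ± 24.4 (SD, n = 5) CPM.

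**Figure D4:**
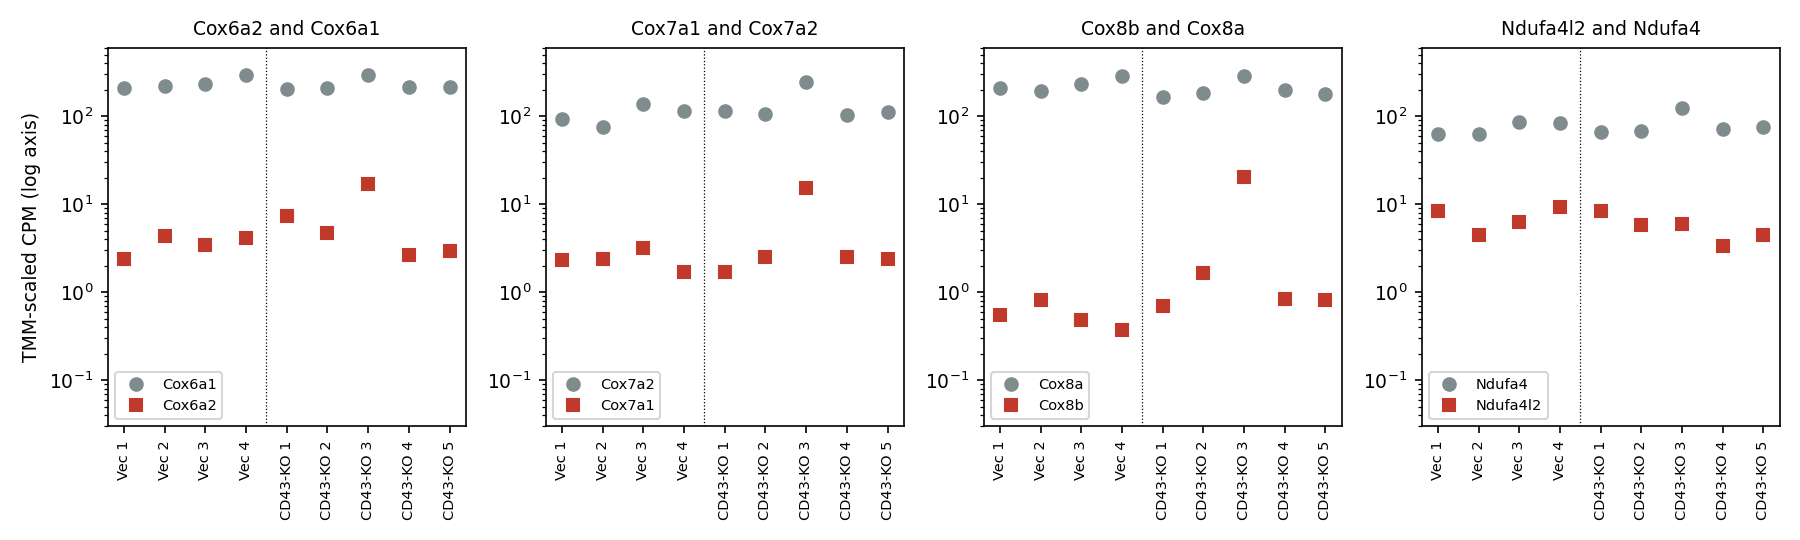
TMM-scaled CPM (log axis) in each of 9 tumours for 3 muscle forms and Ndufa4l2 (squares) with their common relatives (circles), Vec left of the dotted line. Cox8b, Cox7a1 and Cox6a2 are highest in CD43-KO replicate 3, at 20.5, 15.3 and 17.0 CPM, and Ndufa4l2 is not.

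In complex V, 12 of 17 genes had a log2 fold change below 0 with TMM scaling and 9 with total counts, among them 5 and 4 of the 5 subunits of the catalytic F1 head. With Vec replicate 4 left out, 8 of 17 lay below 0, and with CD43-KO replicate 3 left out, 16 of 17. Atp5c1, the rotating central stalk, was at 243, 225, 227 and 316 CPM in Vec and 180.4, 202, 247, 195 and 190.1 CPM in CD43-KO tumours. CD43-KO replicate 3 lay inside the Vec range and the other 4 below it (a log2 fold change of -0.32 ± 0.13, SE, adjusted p = 0.294 by edgeR). Atp5b, the catalytic beta subunit, was at 1021, 1041, 1039.9 and 1264 CPM in Vec and 971, 1036, 1028, 1054 and 989 CPM in CD43-KO tumours. Apart from Vec replicate 4 all tumours lay between 971 and 1054 CPM (a log2 fold change of -0.10 ± 0.09, SE, adjusted p = 0.601 by edgeR).

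Among the membrane subunits, Atp5g1, which encodes the c subunit of the ring, was at 112 ± 29.8 and 101 ± 11.3 CPM in Vec and CD43-KO tumours (a log2 fold change of -0.16 ± 0.16, SE, adjusted p = 0.645 by edgeR). The small subunits Atp5j, Atp5k and Atp5j2 had log2 fold changes of 0.29, 0.25 and 0.15, with adjusted p by edgeR of 0.470, 0.761 and 0.782. Atp5k was at 29.8, 32.4, 45.4 and 40.7 CPM in Vec and 28.2, 32.6, 97.7, 30.8 and 31.6 CPM in CD43-KO tumours. Replicate 3 was far above the next highest tumour, Vec replicate 3, and the other CD43-KO tumours lay at or under the low end of the Vec range. Without it the log2 fold changes of Atp5j, Atp5k and Atp5j2 were 0.07, -0.27 and -0.14.

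The level of subunits in CD43-KO replicate 3 varied with transcript length. Lengths were the median over protein-coding transcripts of the GENCODE M21 basic set on GRCm38 and were found for 78 of the 82 tested members. Relative to the mean of the other 4 CD43-KO tumours on the log2 scale, replicate 3 was higher by a median of 0.89 in the 29 members of up to 600 nucleotides, by 0.70 in the 25 of over 600 and up to 1000 and by 0.34 in the 24 of over 1000. All tested genes in these classes differed by medians of 0.56 (241 genes), 0.43 (958 genes) and -0.024 (13049 genes). The member median of each class thus lay above that of all tested genes in the class. The class of over 1000 has no upper bound, so lengths in it were not matched. Its longest member was Sdha at 2900 nucleotides, where Mki67, another tested gene, had 10061. Sdha, Ndufs1, Atp5b, Atp5a1 and Ndufv1, all long transcripts, differed by 0.000018, -0.04, 0.022, 0.020 and -0.13, and Atp5k, Atp5mpl, Atp5e and Ndufa3, all short ones, by 1.65, 1.25, 1.21 and 1.16. Other members departed from this order, with Ndufb2, Ndufa13 and Ndufs4, of over 1000 nucleotides, at 1.05, 0.86 and 0.70, and Atp5g2, of under 600, at 0.18. Over the 78 members the Spearman correlation of length with this difference was -0.65, and over 14248 tested genes -0.39. These are descriptions of 1 library over genes that share its preparation, with no test.

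Vec replicate 4 was high in another way. Relative to the Vec mean its member medians were 0.23, 0.33 and 0.28 from the shortest to the longest class, where all tested genes had 0.20, 0.21 and -0.013. Its subunit levels were thus high in long transcripts as in short ones. CD43-KO replicates 1, 2, 4 and 5 had member medians between -0.25 and -0.13 in all 3 classes, where all tested genes lay between -0.24 and -0.14 in the 2 shorter classes and between 0.0039 and 0.033 in the longest. Vec replicates 1 and 2 were below 0 in all 3 classes too, with member medians between -0.22 and -0.11. Their member medians overlapped those of these CD43-KO tumours in the 2 shorter classes and lay above them in the longest. The part of RNA quality, library preparation and tissue composition in these patterns was not tested.

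**Figure D5:**
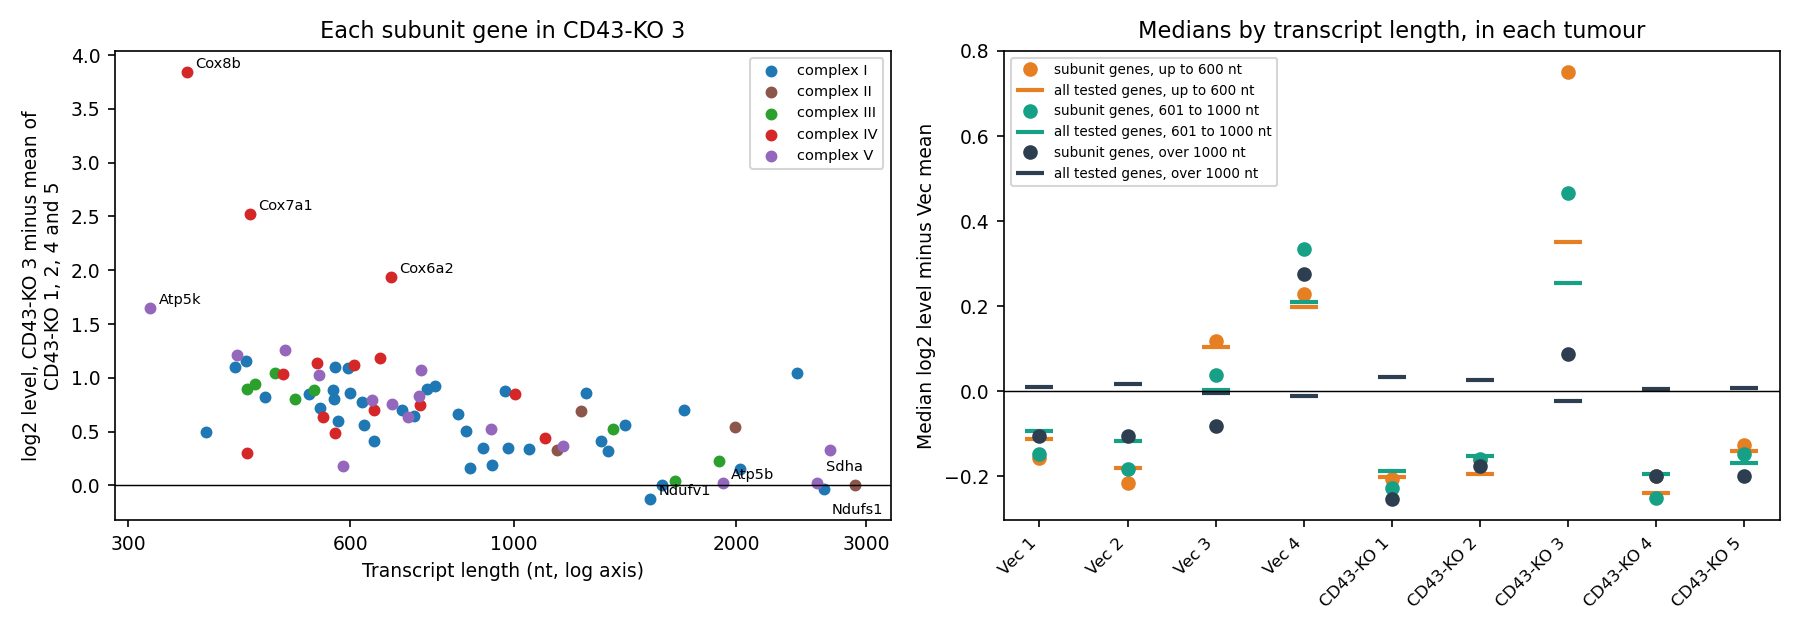
Left, log2 level of each subunit gene in CD43-KO replicate 3 minus the mean of CD43-KO replicates 1, 2, 4 and 5 (y axis) by transcript length in nucleotides (log axis). Right, median log2 level minus the Vec mean in each tumour for 3 length classes, circles for subunit genes and bars for all tested genes; the short classes stand highest in CD43-KO replicate 3, at 0.75 for subunits of up to 600 nucleotides.

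Members on chromosome 19 had lower log2 fold changes than the others, a difference that was not tested. Earlier results of these data had shown that genes of this chromosome lie lower in CD43-KO tumours, so the split is no independent support. The 6 tested members there had a median log2 fold change of -0.27 with 5 below 0, and the 76 members elsewhere -0.05 with 44 below 0. With total counts these medians were -0.18 and 0.04, -0.12 and 0.05 with Vec replicate 4 left out, and -0.39 and -0.20 with CD43-KO replicate 3 left out. All 568 tested genes on chromosome 19 had a median of -0.10 and all 16114 elsewhere 0.03. The 3 members on it at an unadjusted edgeR p under 0.05 were Ndufv1, Ndufb8, an accessory subunit of the membrane arm, and Ndufs8, an iron-sulfur subunit, all lower, where 20.6% of all tested genes on chromosome 19 were. Elsewhere 4 of 76 members were lower at this p, 5.26% beside 7.37% of all tested genes.

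Ndufb8 (chromosome 19, 44548571 to 44555442) was at 187, 184, 196 and 271 CPM in Vec and 139, 160.2, 217, 149 and 139.8 CPM in CD43-KO tumours (a log2 fold change of -0.38 ± 0.16, SE, adjusted p = 0.305 by edgeR). Ndufs8 (chromosome 19, 3908863 to 3912774), which lies near Ndufv1, was at 62.6, 64.4, 67.6 and 102 CPM in Vec and 52.9, 58.8, 70.3, 56.7 and 52.7 CPM in CD43-KO tumours (a log2 fold change of -0.35 ± 0.16, SE, adjusted p = 0.322 by edgeR). In both genes CD43-KO replicate 3 lay inside the Vec range and the other 4 CD43-KO tumours below it. The exception with a fold change above 0 was Atp5md, a small ATP synthase subunit, at a log2 fold change of 0.04.

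Genes that work with the subunits did not pass either. Of 46 assembly factors 45 were tested, with a median log2 fold change of -0.03 and 31 below 0, beside 46% of all tested genes. edgeR and DESeq2 called 0. At an unadjusted edgeR p under 0.05, 4 were lower and 0 higher, beside 7.63% and 7.75% of all tested genes. Sdhaf2, which adds the flavin to Sdha, lies on chromosome 19, where 20.6% of all tested genes were lower at this p. It was at 54.7, 55.1, 52.8 and 65.4 CPM in Vec and 44.5, 44.2, 52.9, 43.0 and 41.0 CPM in CD43-KO tumours (a log2 fold change of -0.34 ± 0.10, SE, adjusted p = 0.217 by edgeR). CD43-KO replicate 3 just reached the lowest Vec tumour, and the other 4 lay below. Bcs1l, which inserts the Rieske protein into complex III, was at 16.8, 18.3, 13.5 and 21.9 CPM in Vec and 13.2, 13.5, 12.4, 14.3 and 13.5 CPM in CD43-KO tumours (a log2 fold change of -0.39 ± 0.13, SE, adjusted p = 0.251 by edgeR). Vec replicate 3 lay among the CD43-KO tumours.

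Of 15 regulators of mitochondrial gene expression 14 were tested, with a median log2 fold change of -0.010, 7 above and 7 below 0. edgeR called 0. At an unadjusted edgeR p under 0.05, 1 was lower and 0 higher, beside 7.63% and 7.75% of all tested genes. DESeq2, which called 2.02% of all tested genes lower, called Tfb1m, a methyltransferase of the mitochondrial ribosomal RNA, lower. It was at 13.8, 12.6, 11.0 and 14.1 CPM in Vec and 9.75, 9.76, 8.87, 9.28 and 9.74 CPM in CD43-KO tumours, with no overlap (a log2 fold change of -0.44 ± 0.11, SE, adjusted p = 0.191 by edgeR, DESeq2 adjusted p = 0.0108). Ppargc1b, a coactivator of mitochondrial biogenesis, was at 3.99, 2.90, 3.86 and 2.44 CPM in Vec and 4.75, 4.32, 4.99, 3.58 and 4.26 CPM in CD43-KO tumours (a log2 fold change of 0.41 ± 0.19, SE, adjusted p = 0.345 by edgeR). Here the groups overlapped and the CD43-KO mean was higher.

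All 13 tricarboxylic acid cycle enzymes were tested, with a median log2 fold change of -0.10 and 10 below 0, beside 46% of all tested genes. edgeR and DESeq2 called 0. At an unadjusted edgeR p under 0.05, 1 was lower and 0 higher, beside 7.63% and 7.75% of all tested genes. These enzymes summed to 1629 CPM in CD43-KO replicate 3, within the 1602 to 1689 CPM of the other CD43-KO tumours, unlike the subunits. Idh3b, a subunit of isocitrate dehydrogenase, was at 118, 119, 97.5 and 145 CPM in Vec and 90.4, 103, 107, 103 and 90.4 CPM in CD43-KO tumours (a log2 fold change of -0.28 ± 0.11, SE, adjusted p = 0.297 by edgeR). Suclg2, a subunit of succinyl-CoA ligase, was at 78.2, 69.8, 68.1 and 77.3 CPM in Vec and 64.8, 64.2, 36.2, 72.5 and 58.9 CPM in CD43-KO tumours, the lowest being CD43-KO replicate 3 (a log2 fold change of -0.31 ± 0.17, SE, adjusted p = 0.403 by edgeR).

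The name rule misses Ndufab1, Cox4i1, Cox4i2 and Cyc1, which encode subunits, Cycs, the electron carrier cytochrome c, and Atpif1, the inhibitor of the ATP synthase. These 6 had a median log2 fold change of -0.12, 4 of them below 0, beside 46% of all tested genes. edgeR and DESeq2 called 0. At an unadjusted edgeR p under 0.05, 0 were lower and 0 higher, beside 7.63% and 7.75% of all tested genes. Cox4i1, the common form of subunit 4, was at 594, 594, 596 and 894 CPM in Vec and 468, 514, 805, 485 and 476 CPM in CD43-KO tumours (a log2 fold change of -0.29 ± 0.19, SE, adjusted p = 0.484 by edgeR). Vec replicate 4 and CD43-KO replicate 3 stood apart here too. Cycs was at 106, 109, 183 and 131 CPM in Vec and 155, 144, 246, 128 and 162 CPM in CD43-KO tumours (a log2 fold change of 0.34 ± 0.21, SE, adjusted p = 0.456 by edgeR), and the groups overlapped.

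The other marker lists varied between tumours as well. Summed leukocyte markers (6 of 6 measured) ranged from 457 to 597 CPM in Vec and from 439 to 1378 CPM in CD43-KO tumours. Summed macrophage markers (5 of 5) ranged from 2228 to 3982 and from 2111 to 8641 CPM. Both sums were highest in CD43-KO replicate 3. CD43-KO replicates 1 and 2 also lay above every Vec tumour, at 790 and 950 CPM for leukocytes and 4428 and 5328 CPM for macrophages. CD43-KO replicates 4 and 5 did not. Summed T cell markers (5 of 5) ranged from 11.1 to 19.1 and from 11.3 to 70.8 CPM, fibroblast markers (5 of 5) from 1399 to 1582 and from 1092 to 3266 CPM, and cycling markers (4 of 4) from 1236 to 1532 and from 1330.04 to 1687 CPM. T cell markers were likewise above the Vec range in CD43-KO replicates 1 and 2, at 26.9 and 45.3 CPM. The part of these marker lists in the subunit levels was not tested.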

How the data were processed

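RNA of 9 tumours was sequenced after TRIzol extraction and NEBNext Ultra library preparation, per the labels' protocols. The authors deposited whole-number counts per gene name, 1 table per tumour, per the file headers. HISAT2 2.1.0, StringTie 1.3.5, DESeq2 and the build GRCm38 are named, with no role, in the submitters' processing notes. The counting step, annotation and strand setting were not given in the sources used here, so genes on opposite strands at 1 place cannot be told apart. 26 names had been turned into dates. 0 value columns lacked a sample. Copies with a suffix stand beside Ndufs3, Ndufa7, Uqcrc1 and Atp5a1, which are uncertain.

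The tests on counts used edgeR 4.0.16 under R 4.3.3 (filterByExpr, minimum count 10, TMM, robust quasi-likelihood F test, Benjamini-Hochberg over 18243 names, threshold 0.05), beside limma 3.58.1 and DESeq2 1.42.0. SEs are the log2 fold change over the square root of F. Tumour values for length classes are log2 (CPM + 0.5). Over 36 pairs of libraries the chi-square per degree of freedom was at least 35.3, so no library was a copy of another. Sums and medians over members are descriptions with no test. Members, lists and the rule for named genes (Spn, all Sdh genes, the 3 smallest p in each direction in the other complexes, tissue-restricted forms, genes without overlap, up to 4 on chromosome 19, up to 2 per companion list) were chosen with earlier results of these data known. Ndufs1, Atp5md, Atp5a1, Atp5mpl, Atp5e, Atp5g2, Ndufa3, Ndufa13, Ndufb2 and Ndufs4 were named after their values were seen. Alternatives were other scalings, filters and tools, copies added, and tumours left out. Values of 1 gene are not reported here.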

Additional observations from a re-analysis of the deposited data

Results flagged for a closer look

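Single tumours stood far from the rest of their group in 32 of 86 comparisons of the named genes, Spn and the complex sums, where the test used would mark about 5% of groups by chance. The genes are not independent, as 25 of the 32 were in CD43-KO replicate 3, 6 in Vec replicate 4 and 1 in Vec replicate 3. In CD43-KO replicate 3 the sums of complexes I to V were 3945, 679, 1487, 2823 and 5203 CPM. In complex I genes of that tumour, Ndufa1 was at 89.2 CPM, Ndufa4 at 125 CPM, Ndufa5 at 94.6 CPM and Ndufb8 at 217 CPM. Sdhc was at 136 CPM and Sdhd at 195 CPM, and Uqcrb at 138 CPM and Uqcr11 at 114 CPM. In complex IV, Cox6a1 was at 297 CPM, Cox6b1 at 231 CPM, Cox6c at 467 CPM, Cox7a2 at 247 CPM, Cox7b at 260.02 CPM and Cox8a at 284 CPM, and the muscle forms Cox7a1 and Cox8b at 15.3 and 20.5 CPM. In complex V, Atp5g1 was at 120.4 CPM, Atp5j at 136 CPM, Atp5j2 at 317 CPM and Atp5k at 97.7 CPM. All these were above the other 4 CD43-KO tumours. The same tumour had the lowest total count, 44814061, and the high muscle and fat markers given above.

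In Vec replicate 4, complex II summed to 730.4 CPM, and Sdhd was at 198 CPM, Atp5b at 1264 CPM, Atp5g1 at 157 CPM, Ndufb8 at 271 CPM and Ndufs8 at 102 CPM, all above the other 3 Vec tumours. Ndufc2 was at 101 CPM in Vec replicate 3, against 61.2 to 67.03 CPM in the other Vec tumours. Vec replicate 4 had the lowest TMM factor, 0.891.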

How the results depend on the processing

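edgeR called 0 members in either direction under every scaling, filter and omission run, while DESeq2 and limma voom each called 2 lower. Over all genes edgeR called 0, DESeq2 248 higher and 369 lower, and voom 165 higher and 332 lower. With no filter edgeR called 1 gene lower, and leaving out 1 tumour gave 0 to 8 higher and 0 to 21 lower, the most without Vec replicate 3. The log2 ratios of the 5 complex sums, the median of all members and that of chromosome 19 members moved by less than 1 pooled within-group SD of the tumours on the log2 scale under the alternatives run, and several changed sign. That SD was taken over all 9 tumours, so leaving out 1 of them could hardly move a value beyond it. For the omissions it is therefore no measure of how stable these values are. With 1 tumour left out the members' median ranged from -0.21 to 0.043 and the complex I ratio from -0.23 to -0.0030. Of 591 alternative values of 37 named member genes, 556 kept direction and call, 4 passed (Ndufv1 and Cox7a2l with DESeq2 and voom) and 31, in 14 genes, changed sign, for which the cause was not tested. With voom Uqcr11, Atp5k and Cox7a1 were at -0.0012, -0.070 and -0.045. With total counts Sdha, Sdhb, Uqcrc2, Cox6a1 and Cox6b1 were at 0.0073, 0.022, 0.00078, 0.024 and 0.057. Without both Vec replicate 4 and CD43-KO replicate 3, an alternative chosen after seeing the data, Ndufa5, Uqcrb, Uqcr11, Atp5k, Atp5j2 and Cox7a1 were at -0.053, -0.0097, -0.065, -0.22, -0.072 and -0.21. Leaving out 1 tumour gave ranges of -0.24 to 0.040 for Atp5g1, -0.14 to 0.23 for Atp5j2, -0.27 to 0.38 for Atp5k, -0.18 to 0.043 for Cox6a1, -0.30 to 0.085 for Cox6b1, -0.078 to 1.24 for Cox7a1, -0.065 to 0.21 for Ndufa4, -0.063 to 0.37 for Ndufa5, -0.15 to 0.032 for Sdhb, -0.17 to 0.17 for Uqcr11, -0.032 to 0.32 for Uqcrb and -0.027 to 0.26 for Uqcrq. Spn kept its direction, from -1.08 to -0.69 with 1 tumour left out. Adding copies to their members or moving Ndufa4 to complex IV changed the sums little. No paired analysis was possible because the replicate numbers follow deposition order and link no tumours across groups.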

Other observations

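The rows that the name rule leaves out were measured too. Ndufb1-ps, whose name carries the -ps mark, was at 48.3, 41.7, 55.7 and 61.5 CPM in Vec and 38.97, 43.8, 117, 39.01 and 45.6 CPM in CD43-KO tumours, with CD43-KO replicate 3 again the highest. Of the 6 rows with a copy suffix, Uqcrc1_1 had a log2 fold change of -0.22 and Atp5a1_1 of -0.09, close to the -0.22 and -0.09 of Uqcrc1 and Atp5a1. Ndufa7_3 was at -0.48, where Ndufa7 was at -0.21 (edgeR adjusted p = 0.288 and 0.663).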
